A study of Mus musculus with 6 samples.

Results

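The genes described here set how much sterol regulatory element-binding protein (SREBP) reaches the nucleus of a liver cell and how cholesterol enters and moves within it. There are 7 of them: *Srebf1*, *Srebf2*, *Scap*, *Insig1*, *Insig2*, *Mylip* and *Stard4*. They were chosen by name, with earlier results of these data known. They are the SREBP factors, their escort and anchors, a ligase that acts on lipoprotein receptors and a sterol carrier. These are 7 of the 54115 genes to which reads could be assigned and 7 of the 12524 genes that passed the filter on low counts. Livers of 3 wild-type (WT) and 3 *Sirt7* KO male mice were compared by RNA-seq, to ask which liver genes change without SIRT7, a deacylase of the sirtuin family. All mice were 24 months old and had been fasted for 16 h before the liver was taken. The knockout covered the whole body and not the liver alone, and WT mice were littermates from heterozygous crosses on a C57BL/6J background. Each mouse gave 1 library, made from full-length cDNA of whole liver by a kit that does not keep the strand, and none was pooled.

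SREBPs are made as precursors in the membrane of the endoplasmic reticulum. SCAP holds the precursor, senses cholesterol and carries it to the Golgi, where it is cut and the freed part enters the nucleus. When sterols are plentiful, INSIG proteins hold SCAP back. SREBP-2, from *Srebf2*, acts mainly on genes of cholesterol synthesis and uptake. SREBP-1c, from the downstream first exon of *Srebf1*, acts mainly on genes of fatty acid synthesis, and in the liver it is known to be low in fasting and high after feeding with insulin. SREBP-1a, from the upstream first exon of the same gene, has a longer activation domain and acts on both.

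The first exons of *Srebf1* are shown because they are where the 1a and 1c transcripts part. In GRCm38 the coding part of the 1a first exon lies at chr11:60220453-60220543 and that of the 1c first exon at chr11:60210336-60210354, both on the minus strand. Below, each runs into the first 15 bases of the exon that follows in both transcripts, and capitals mark the start codon.
Srebf1 1a: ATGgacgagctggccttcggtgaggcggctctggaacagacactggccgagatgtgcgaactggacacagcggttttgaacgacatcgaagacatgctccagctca
Srebf1 1c: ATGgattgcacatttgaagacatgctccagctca
The 1a exon adds 91 coding bases and the 1c exon 19, and the last 15 bases printed are the same in both. The transcript models start 10139 bases apart.

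Promoter sequence of 6 of the 7 genes, with 11 start sites, was taken from RefSeq (GRCm38.p6), as 250 bases before to 50 bases after each start. Both strands were searched for TCACNCCAC, the core of a sterol regulatory element, for CCAAT, the box bound by NF-Y, for CACGTG, an E-box, and for GGGCGG, a GC box. TCACNCCAC was in none of the 11 windows and in 1.24% of 32851 mouse promoters of the same length. A looser word, TCACCCNA, was added after the sequences were seen and was found in 2 of them and in 3.75% of all promoters. The stretches below lie before the first annotated exon of the start they belong to and are from 4 windows of the SREBP genes and *Insig1*. The *Srebf1* window at the most upstream start is not shown. It held CCAAT 166 bases before the start. Capitals mark TCACCCNA, CCAAT (or its reverse, ATTGG) and CACGTG.
Srebf1 1c, chr11:60210472-60210721, minus strand: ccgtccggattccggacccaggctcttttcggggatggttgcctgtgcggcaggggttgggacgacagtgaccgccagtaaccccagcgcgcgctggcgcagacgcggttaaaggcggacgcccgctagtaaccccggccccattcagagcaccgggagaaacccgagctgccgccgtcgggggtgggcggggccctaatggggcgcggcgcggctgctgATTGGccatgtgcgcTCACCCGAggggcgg
Srebf1 1a, chr11:60220628-60220877, minus strand: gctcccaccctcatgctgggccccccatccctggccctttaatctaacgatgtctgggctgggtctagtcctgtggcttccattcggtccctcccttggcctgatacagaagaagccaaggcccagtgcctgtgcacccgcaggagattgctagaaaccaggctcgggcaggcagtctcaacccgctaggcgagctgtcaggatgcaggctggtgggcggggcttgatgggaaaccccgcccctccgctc
Srebf2, chr15:82147019-82147180, plus strand: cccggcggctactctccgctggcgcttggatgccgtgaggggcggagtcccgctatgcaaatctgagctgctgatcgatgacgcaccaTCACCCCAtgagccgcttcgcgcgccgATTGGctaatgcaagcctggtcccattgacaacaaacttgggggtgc
Insig1, chr5:28071162-28071362, plus strand: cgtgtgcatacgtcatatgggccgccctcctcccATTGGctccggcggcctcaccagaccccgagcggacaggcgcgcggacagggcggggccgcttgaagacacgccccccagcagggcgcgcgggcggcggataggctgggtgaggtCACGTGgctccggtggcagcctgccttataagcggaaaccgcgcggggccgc
The 1c window held TCACCCNA 15 bases and CCAAT 30 bases before the start, while the 1a window held neither. GC boxes were in all 4 windows, 2 in that of 1c, 3 in that of 1a, 5 in that of *Srebf2* and 3 in that of *Insig1*. In the *Srebf2* window TCACCCNA began 162 bases and CCAAT 135 bases before the start. The *Insig1* window held CCAAT and CACGTG, 216 and 101 bases before the start. Among windows not shown, CACGTG was also in those of *Scap*. CCAAT was found 3 times each in the upstream *Insig2* window and the *Mylip* window. CCAAT occurs in 37.4%, CACGTG in 7.15% and GGGCGG in 35.7% of all promoters. Words in these windows are descriptions and not binding sites.

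Depth was between 9994860 and 13424776 reads on transcripts per liver. Summed levels of 8 hepatocyte markers were 55870 to 61510 CPM (reads relative to library size, with TMM scaling) in WT and 56120 to 68130 CPM in *Sirt7* KO livers. The corresponding ranges were 83.6 to 214 and 74.6 to 204 CPM for 10 macrophage markers, 87.6 to 114 and 92.4 to 130 CPM for 8 endothelial markers, 173 to 215 and 142 to 224 CPM for 8 stellate cell markers, 19.5 to 20.7 and 14.9 to 24.3 CPM for 10 lymphocyte markers, 47.3 to 72.7 and 53.4 to 71.0 CPM for 6 cholangiocyte markers, and 374 to 547 and 446 to 915 CPM for 5 erythroid markers. No marker was at 0 in all livers, and the part of other cell types in the results was not tested. *Sirt7* itself was at 55.2, 45.5 and 47.3 CPM in WT livers 1 to 3 and at 28.6, 41.8 and 40.8 CPM in *Sirt7* KO livers, and its full-length isoform held 381 to 429 reads in WT and 77.5 to 135 reads in *Sirt7* KO livers. On scales that correct for transcript length the direction of the gene turned, with 29.99 ± 3.81 TPM in WT and 50.9 ± 16.7 TPM in *Sirt7* KO livers (SD, n = 3) and a log2 fold change of 0.80 by edgeR with length offsets.

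Of the 7 genes, 6 had a higher mean in *Sirt7* KO than in WT livers, where 49.3% of all tested genes had a log2 fold change above 0. The exception was *Mylip*. By edgeR's quasi-likelihood test 5 of the 7 were higher at an unadjusted p under 0.05, which held for 6.54% of all tested genes. None was called at an adjusted p under 0.05 with a fold change over 1.5, where 0.00798% of the tested genes were called. DESeq2, the tool of the study, called 1 of the 7, *Insig1*, with 1.3% of its tested genes called higher, or 1.38% with length offsets. Counted in either direction, 11.3% of tested genes had an unadjusted p under 0.05 by edgeR. Without a filter on low counts edgeR called 2 of the 7, *Insig1* and *Srebf1*, beside 1.5% of genes called higher. That fit gave *Srebf1* and *Scap* nearly the same standard error, 0.193 and 0.192, against 0.40 and 0.15 with the filter. Its calls therefore do not take up the wider spread of *Srebf1* between livers. The 2 genes whose livers did not overlap between genotypes were *Insig1* and *Scap*, beside 8.74% of tested genes without overlap in this direction. With 3 livers against 3 the exact permutation test cannot go below p = 0.1. WT liver 1 had the lowest level of all 6 livers for each of the 7 genes, and it was the lowest liver for 18.4% of tested genes. *Sirt7* KO liver 2 was the highest for 4 of the 7. Without WT liver 1 the count of the 7 genes higher at an unadjusted p under 0.05 was 2, without WT liver 3 it was 3, without *Sirt7* KO liver 2 it was 2 and without *Sirt7* KO liver 3 it was 3. No share of all tested genes is given for these fits, so the counts have no background beside them. Fewer cells of a type and less RNA per cell cannot be told apart in whole liver.

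**Figure D1:**
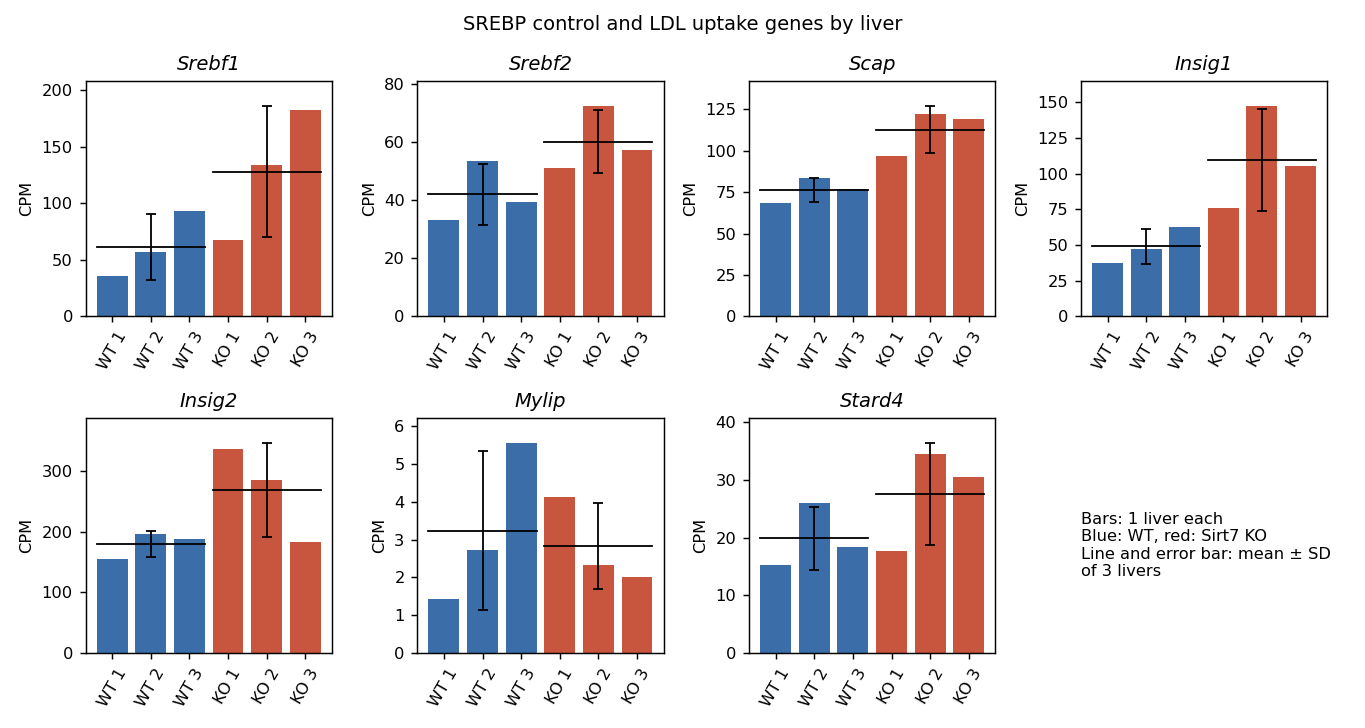
Levels of the 7 genes in each liver, in CPM scaled by TMM (y axis, from 0), with 1 bar per liver, WT in blue and *Sirt7* KO in red. Lines and error bars are the mean ± SD of 3 livers, and only *Scap* and *Insig1* have all *Sirt7* KO bars above all WT bars.

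*Srebf1* (ENSMUSG00000020538.15, chromosome 11, 60199089 to 60222581, minus strand of GRCm38) encodes SREBP-1a and SREBP-1c. Its level was 35.4, 57.0 and 92.9 CPM in WT livers 1 to 3 and 67.8, 134 and 183 CPM in *Sirt7* KO livers 1 to 3. *Sirt7* KO livers 2 and 3 were above every WT liver, while *Sirt7* KO liver 1 lay between WT livers 2 and 3. The means were 61.8 ± 29.1 and 128 ± 57.8 CPM (SD, n = 3), a log2 fold change of 1.05 with a standard error of 0.40 (edgeR, unadjusted p = 0.029, adjusted p = 0.36). This gene had the widest spread of the 6 better-covered genes, with a coefficient of variation of 47.0% among WT livers, larger than that of 89.6% of tested genes. Its log2 fold change was larger than that of 97.4% of tested genes. It was 0.71 without *Sirt7* KO liver 3 and 1.48 without WT liver 3.

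*Srebf2* (ENSMUSG00000022463.8, chromosome 15, 82147181 to 82205379, plus strand) encodes SREBP-2. WT livers 1 to 3 held 33.2, 53.5 and 39.4 CPM, and *Sirt7* KO livers 1 to 3 held 50.9, 72.3 and 57.2 CPM. Only WT liver 2 reached into the *Sirt7* KO range. Its log2 fold change was 0.52 with a standard error of 0.21 (edgeR, unadjusted p = 0.036, adjusted p = 0.39). The spread was also smaller than that of *Srebf1*, with means of 42.0 ± 10.4 and 60.1 ± 10.97 CPM (SD, n = 3). Most reads fell to Srebf2-201 and Srebf2-203, which are both coding.

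*Scap* (ENSMUSG00000032485.14, chromosome 9, 110333288 to 110384950, plus strand) encodes the escort that binds SREBP precursors. It was at 68.7, 83.4 and 76.9 CPM in WT livers and at 96.6, 123 and 119 CPM in *Sirt7* KO livers. All *Sirt7* KO livers were above all WT livers, and the WT livers differed little, with a coefficient of variation of 9.66%. Its log2 fold change of 0.56 was small beside that of *Insig1* but had the smallest standard error of the 7 genes, 0.15 (edgeR, unadjusted p = 0.0051, adjusted p = 0.22; two-sided exact permutation p = 0.1). It stayed between 0.49 and 0.67 when any 1 liver was left out. Over isoforms of at least 1000 bases, *Srebf2* had 0.587 ± 0.0874 of the level of *Scap* per length in WT and 0.605 ± 0.0775 in *Sirt7* KO livers (SD, n = 3; two-sided exact permutation p = 0.7). Of the words of 31 bases in *Scap* transcripts, 11.3% also occur in 1 other annotated gene, so reads from there could be split. This share was 0% to 3.46% for the other 6 genes.

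*Insig1* (ENSMUSG00000045294.11, chromosome 5, 28071363 to 28078662, plus strand) encodes the INSIG protein that is itself an SREBP target and is degraded when sterols are low. WT livers 1 to 3 had 37.7, 47.4 and 62.3 CPM. *Sirt7* KO livers 1 to 3 had 76.0, 147 and 105 CPM. Every *Sirt7* KO liver was above every WT liver, and *Sirt7* KO liver 1 was nearest to the WT range. The means of 49.1 ± 12.4 and 109 ± 35.7 CPM (SD, n = 3) differed by a log2 fold change of 1.15 with a standard error of 0.26, a fold of 2.23 and the largest of the 7 genes (edgeR, unadjusted p = 0.0018, adjusted p = 0.17; two-sided exact permutation p = 0.1). By DESeq2 the log2 fold change was 1.16 with an adjusted p of 0.0015, and with offsets for transcript length it was 1.10 with an adjusted p of 0.014. Without *Sirt7* KO liver 1 the edgeR test also called it, at a log2 fold change of 1.36 and an adjusted p of 0.031. That fit called 165 genes higher, beside 1 with all livers. With any other liver left out the edgeR test did not call it, at adjusted p-values of 0.26 to 0.46. The single isoform Insig1-201 held 97.2% to 99.1% of its reads.

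*Insig2* (ENSMUSG00000003721.14, chromosome 1, 121304353 to 121332589, minus strand) encodes the second INSIG protein, which is known to be high in the fasted liver. It was at 156, 196 and 188 CPM in WT livers and at 336, 285 and 184 CPM in *Sirt7* KO livers. In this gene the order of the *Sirt7* KO livers differed from that of the genes above: liver 1 was the highest and liver 3 lay within the WT range. Genotypes differed by a log2 fold change of 0.58 with a standard error of 0.22 (edgeR, unadjusted p = 0.029, adjusted p = 0.37). With an offset for the average transcript length it was 0.35, and without *Sirt7* KO liver 1 it was 0.38. Its transcripts begin at an upstream start (chromosome 1, 121332589), a middle start (121328024) and several downstream starts. The middle start, Insig2-201, held 1137, 1267 and 1615 reads in WT livers and 2729, 1614 and 981 reads in *Sirt7* KO livers. The upstream start held 236, 491 and 507 reads in WT livers and 714, 777 and 395 reads in *Sirt7* KO livers. No start had a share of the gene's TPM (a level scaled by transcript length and library size) that differed between genotypes beyond the spread of the livers, with exact permutation p-values of at least 0.4.

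**Figure D2:**
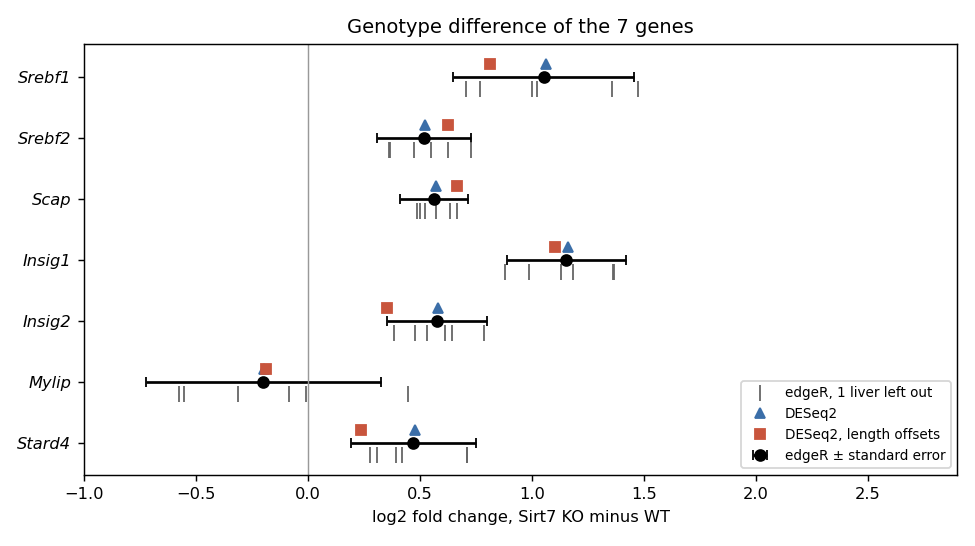
The log2 fold change of each gene, *Sirt7* KO minus WT (x axis), by edgeR with its standard error (black), with each liver left out in turn (grey ticks) and by DESeq2 without and with length offsets (triangles and squares). *Insig1* and *Srebf1* lie farthest to the right at 1.15 and 1.05, and the ticks of *Mylip* lie on both sides of 0.

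*Mylip* (ENSMUSG00000038175.10, chromosome 13, 45389742 to 45412022, plus strand) encodes IDOL, a ubiquitin ligase that sends lipoprotein receptors to degradation and is induced by the oxysterol receptor LXR. It had few reads, 17, 30 and 75 in WT livers and 45, 22 and 21 in *Sirt7* KO livers. On the CPM scale these were 1.44, 2.72 and 5.55 against 4.12, 2.33 and 2.02, and the *Sirt7* KO livers all lay within the WT range. Genotypes differed by a log2 fold change of -0.20 with a standard error of 0.52 (edgeR, adjusted p = 0.93). Without WT liver 3 it was 0.45. No difference was detectable at this depth.

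*Stard4* (ENSMUSG00000024378.9) encodes a small START-domain protein that moves cholesterol between membranes and is a known SREBP-2 target. It had 15.3, 25.9 and 18.4 CPM in WT livers and 17.7, 34.5 and 30.5 CPM in *Sirt7* KO livers. *Sirt7* KO livers 2 and 3 were above every WT liver and liver 1 was within the WT range. The log2 fold change of 0.47 had a standard error of 0.28 (edgeR, unadjusted p = 0.12, adjusted p = 0.58), and with a length offset it was 0.23.

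Read by isoform, the 1a and the 1c transcript of *Srebf1* both had higher means in *Sirt7* KO livers, while their shares overlapped between genotypes. These are estimates over whole transcripts, and reads on the first exons alone were not counted. Srebf1-201, the 1a transcript (4299 bases), held 342, 484 and 917 reads in WT livers and 560, 728 and 1422 reads in *Sirt7* KO livers. Srebf1-207, the 1c transcript (3177 bases), held 53.3, 98.3 and 252 reads in WT livers and 131, 272 and 408 reads in *Sirt7* KO livers. A second transcript that begins at the 1c exon, Srebf1-208, held 0 reads in every liver. The 1a transcript thus held more estimated reads than the 1c transcript in all 6 livers. However, the 1a model has 1100 bases outside its first exon that the 1c model lacks. The order therefore does not show which first exon was used more.

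In TPM, the 1c transcript was at 3.02 ± 2.0 in WT and 7.5 ± 4.06 in *Sirt7* KO livers (SD, n = 3), a fold of 2.48, and the 1a transcript at 9.63 ± 3.81 and 17.9 ± 9.42, a fold of 1.86 (two-sided exact permutation p = 0.2 for each). The 1c share of the TPM of both was 17.8%, 21.9% and 27.5% in WT livers and 24.4%, 34.0% and 28.4% in *Sirt7* KO livers. *Sirt7* KO livers 2 and 3 were above every WT liver and liver 1 was between WT livers 2 and 3. Relative to the WT livers these were the positions seen for the level of the whole gene. The order of the 2 highest differed, as *Sirt7* KO liver 2 had the highest share and *Sirt7* KO liver 3 the highest level. The mean share was 22.4 ± 4.90% and 29.0 ± 4.83% (SD, n = 3), a difference of 6.55 percentage points (two-sided exact permutation p = 0.2). Counted in reads the difference was 5.49 percentage points.

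The transcript models limit this split. The transcripts share 3047 bases, which is 95.9% of the 1c model and 70.9% of the 1a model. A further 1100 bases lie in the 1a model outside its first exon and are absent from the 1c model, so reads from them could not be given to 1c. Whether liver 1c transcripts carry these bases was not tested. Outside the 1a and 1c transcripts, Srebf1-203, which starts in a shared exon, held 211 reads in *Sirt7* KO liver 2 and 0 to 50.8 reads in the others. Srebf1-204, a non-coding model of 367 bases at the most upstream start, held 11.8 to 28.4 reads per liver. Because it is short, these reads made up 45.4 ± 12.8% of the TPM of *Srebf1* in WT and 29.8 ± 12.5% in *Sirt7* KO livers (SD, n = 3), against 2.97% and 1.71% of the reads.

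**Figure D3:**
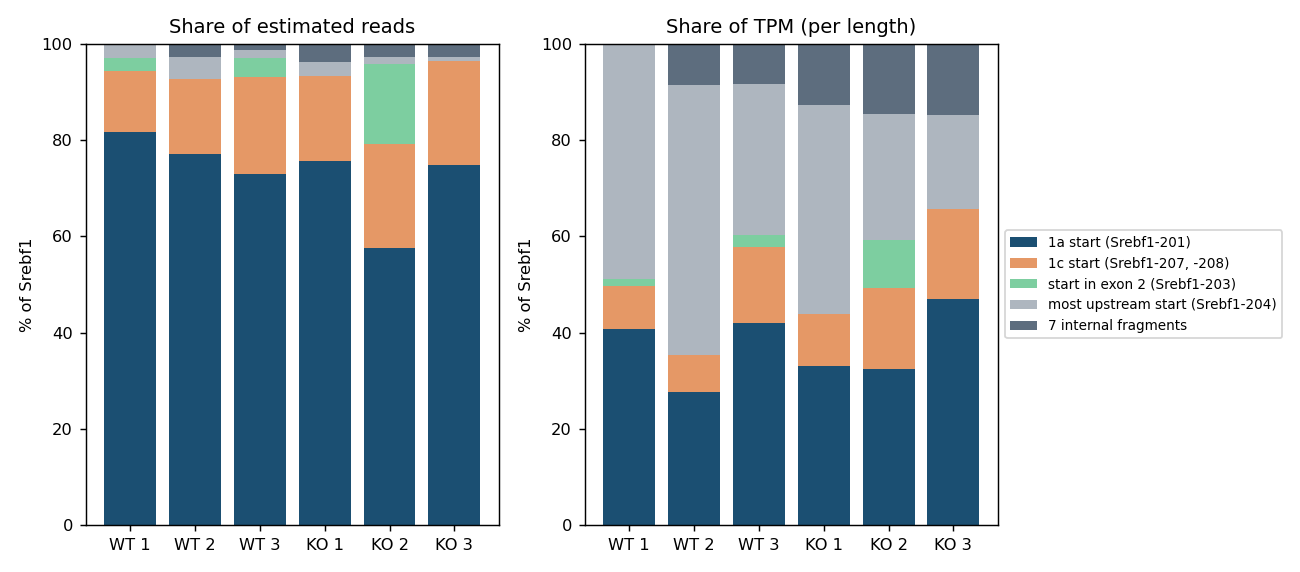
Shares of *Srebf1* given to its transcripts in each liver, in percent of estimated reads (left) and of TPM (right), with 1 stacked bar per liver. The 1a transcript holds 57.7% to 81.7% of the reads, and the short Srebf1-204 takes 19.5% to 56.1% of the TPM with few reads. The 1a model has 1100 bases outside its first exon that the 1c model lacks, which limits the split of reads.

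Compared per length over isoforms of at least 1000 bases, in TPM, *Insig2* was the highest of the 7 genes, with a mean of 83.4 ± 32.1 over the 6 livers (SD). *Insig1* followed at 26.2 ± 13.7, *Srebf1* at 20.02 ± 12.1 and *Scap* at 19.7 ± 4.46. *Srebf2* was at 11.8 ± 3.39, *Stard4* at 3.67 ± 1.30 and *Mylip* at 0.878 ± 0.430. *Insig2* was above *Insig1*, *Srebf2* above *Stard4* and *Stard4* above *Mylip* without overlap. The ranges of *Insig1*, *Srebf1* and *Scap* overlapped, and *Srebf1* was above *Scap* in 3 of 6 livers. This cut at 1000 bases was chosen after seeing the data, because shorter models took 34.3% to 64.6% of the TPM of *Srebf1* with 2.83% to 7.31% of its reads and 59.4% to 80.8% of the TPM of *Insig2* with 6.94% to 28.5% of its reads. With all models *Insig2* had 299 TPM and *Srebf1*, at 36.3, was second. The ratio of *Insig2* to *Insig1* over the longer isoforms was 3.79, 4.66 and 3.37 in WT livers and 5.31, 2.48 and 1.74 in *Sirt7* KO livers. *Sirt7* KO liver 1 had the highest ratio and livers 2 and 3 the lowest (two-sided exact permutation p = 0.5).

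Transcripts in a list drawn up for SREBP processing and INSIG turnover did not share a direction. Not every gene in this list need act on SCAP, INSIG or SREBP. Of 26 genes for SREBP processing and INSIG turnover, 11 were higher and 15 lower in *Sirt7* KO livers, with a median log2 fold change of -0.02, where that of all tested genes was -0.01. At an unadjusted p under 0.05, 1 was higher and 3 were lower, and none was called. *Sec24d*, a coat subunit of the vesicles that leave the endoplasmic reticulum, was at 43.1 to 47.1 CPM in WT and 54.5 to 77.1 CPM in *Sirt7* KO livers, without overlap (log2 fold change 0.53, edgeR adjusted p = 0.26). *Paqr3*, which tethers SCAP and SREBP to the Golgi, had a log2 fold change of 0.60 (adjusted p = 0.54, edgeR). On the lower side, *Usp20*, a deubiquitinase, was at 10.8 to 14.9 CPM in WT and 6.46 to 8.90 CPM in *Sirt7* KO livers, without overlap (log2 fold change -0.72, edgeR adjusted p = 0.27). *Rnf145*, a sterol-sensing ligase, had a log2 fold change of -0.61 (edgeR adjusted p = 0.37).

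The enzymes that SREBP-2 is known to switch on had larger log2 fold changes than most of the 7 genes, whose median was 0.56. All 20 sterol synthesis genes tested were higher in *Sirt7* KO livers, with a median log2 fold change of 1.62. The median was 1.00 without *Sirt7* KO liver 2 and 1.98 without *Sirt7* KO liver 1. Of these genes, 17 were higher at an unadjusted p under 0.05, beside 6.54% of all tested genes, and 13 had livers that did not overlap, beside 8.74%, but none was called by edgeR. This list, like the others, was drawn up with earlier results of these data known. *Fdft1*, squalene synthase, was at 4.996, 39.7 and 8.73 CPM in WT livers and at 37.4, 255 and 110 CPM in *Sirt7* KO livers (log2 fold change 2.92, edgeR adjusted p = 0.24). *Fdps*, which makes farnesyl diphosphate, was at 39.7, 76.0 and 53.6 CPM in WT livers and at 85.8, 650 and 257 CPM in *Sirt7* KO livers (log2 fold change 2.55, edgeR adjusted p = 0.18). *Sirt7* KO liver 1 stood near the WT livers in both. *Hsd17b7*, which acts late in the pathway, was near the low end of the list, with a log2 fold change of 0.21. Taken as the mean of log2(CPM + 0.5) relative to the 6 livers, the list stood at -1.12, -0.25 and -0.66 in WT livers 1 to 3 and at -0.12, 1.5 and 0.65 in *Sirt7* KO livers 1 to 3. The order of the *Sirt7* KO livers was the one seen for *Insig1*, with liver 2 the highest and liver 1 the lowest, and WT liver 1 was the lowest in both.

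Of 15 tested genes in a list drawn up for fatty acid synthesis and SREBP-1c, 12 were higher and 3 lower in *Sirt7* KO livers (median log2 fold change 0.64). Not every gene in this list need be a target of SREBP-1c. At an unadjusted p under 0.05 by edgeR, 7 were higher and 2 lower, beside 6.54% and 4.78% of all tested genes, and none was called. *Thrsp*, a lipogenic regulator, was at 10.8, 18.1 and 44.3 CPM in WT livers and at 21.2, 239 and 100.1 CPM in *Sirt7* KO livers (log2 fold change 2.30, edgeR adjusted p = 0.32). *Acss2*, which makes acetyl-CoA from acetate, was at 37.6 to 63.5 CPM in WT and 72.3 to 388 CPM in *Sirt7* KO livers, without overlap (log2 fold change 2.06, edgeR adjusted p = 0.19). The lowest values were those of *Me1*, malic enzyme (-0.55), and *Aacs*, which activates acetoacetate (-0.97). As a mean, the list stood at -0.54, -0.10 and -0.20 in WT livers and at -0.29, 0.78 and 0.36 in *Sirt7* KO livers, so that *Sirt7* KO liver 1 was within the WT range.

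**Figure D4:**
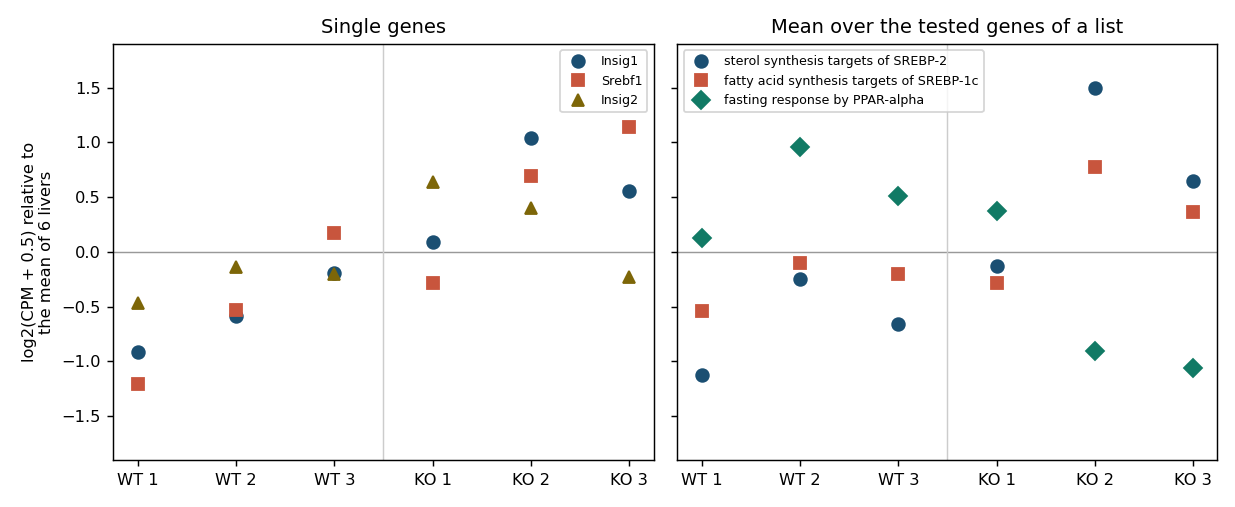
Levels relative to the mean of the 6 livers on the log2(CPM + 0.5) scale (y axis) for *Insig1*, *Srebf1* and *Insig2* (left) and for the mean of 3 gene lists (right), with 1 point per liver. *Sirt7* KO liver 1 lies apart from *Sirt7* KO livers 2 and 3 in the lists, and *Insig2* is highest there.

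Genes of the fasting response that PPAR-alpha drives were mostly lower in the same livers. Of 26, 23 were lower and 3 higher in *Sirt7* KO livers, with a median log2 fold change of -0.63 that was -1.13 without *Sirt7* KO liver 1, and 14 were lower at an unadjusted p under 0.05, where 4.78% of all tested genes were. None was called by edgeR. *Cyp4a14*, a fatty acid hydroxylase, was at 2049 to 3182 CPM in WT livers and at 884, 268 and 82.8 CPM in *Sirt7* KO livers (log2 fold change -2.69, edgeR adjusted p = 0.20). *Acot3*, a thioesterase, had a log2 fold change of -2.98 (edgeR adjusted p = 0.17), while *Pdk4*, a kinase that restrains pyruvate dehydrogenase, had the highest of the list, 0.34. As a mean the list stood at 0.13, 0.96 and 0.51 in WT livers and at 0.37, -0.90 and -1.06 in *Sirt7* KO livers, with *Sirt7* KO liver 1 again within the WT range. The part of feeding state in the levels of the 7 genes was not tested, as every mouse was fasted and no fed liver was analysed here.

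Genes of lipoprotein uptake and of sterol transport showed no common direction. Of 17 tested genes of LDL uptake and lysosomal cholesterol export, 11 were higher and 6 lower (median log2 fold change 0.12), with 1 in each direction at an unadjusted p under 0.05. *Usp2*, a deubiquitinase that acts on IDOL, the product of *Mylip*, was at 25.6, 58.8 and 83.0 CPM in WT livers and at 3.21, 10.1 and 26.2 CPM in *Sirt7* KO livers (log2 fold change -2.09, edgeR adjusted p = 0.27). *Scarb2*, a lysosomal membrane protein, had a log2 fold change of -0.30, and *Tmem97*, which binds the lysosomal cholesterol exporter NPC1, of 0.50. Of 12 genes of LXR and its targets, the class to which *Mylip* belongs, 6 were higher and 6 lower, with a median of -0.01. *Rxra*, the partner of LXR, was at 127 to 129 CPM in WT and 93.5 to 100.2 CPM in *Sirt7* KO livers, without overlap (log2 fold change -0.40, edgeR adjusted p = 0.28). *Abca1* and *Abcg1*, the cholesterol efflux pumps, had log2 fold changes of 0.32 and 0.38, and *Lpl*, lipoprotein lipase, of -0.30.

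Among 10 tested genes of intracellular sterol transport, which include START-domain carriers, oxysterol-binding proteins and a tether, 4 were higher and 6 lower (median log2 fold change -0.07). *Stard3nl*, a late endosomal tether, was at 6.27 to 11.3 CPM in WT and 13.3 to 14.0 CPM in *Sirt7* KO livers, without overlap (log2 fold change 0.67, edgeR adjusted p = 0.34), and *Gramd1c*, a carrier from the plasma membrane, had a log2 fold change of 0.45. *Stard5* (-0.27) and *Star* (-0.21) were the lowest. Of 12 genes of cholesterol esterification and export, 5 were higher and 7 lower (median -0.14). *Hsd3b7* and *Cyp8b1*, both of bile acid synthesis, each had a log2 fold change of 0.51, and *Soat2*, which esterifies cholesterol, and *Ces1d*, a carboxylesterase, had -0.47 and -0.76. None of the genes in these 4 lists was called by edgeR.

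**Figure D5:**
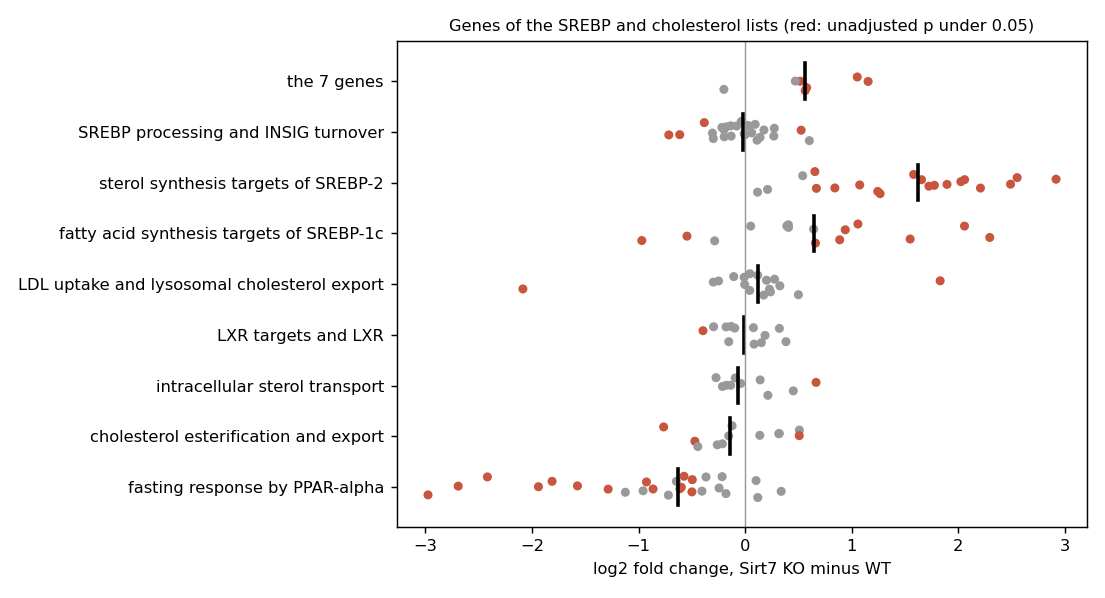
The log2 fold change, *Sirt7* KO minus WT (x axis), of every tested gene in the 7 genes and 8 lists (y axis), with 1 point per gene, red at an unadjusted p under 0.05, and the median as a bar. The medians run from -0.63 for the fasting response to 1.62 for sterol synthesis.

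Across the 6 livers, the genes most like *Insig1* among 6679 better-covered genes were *Pm20d1*, *Ttc39c* and *Rgn*, with Pearson r of log2(CPM + 0.5) of 0.990 to 0.994. *Ttc39c* was at 63.1, 90.0 and 103 CPM in WT livers and at 131, 266 and 211 CPM in *Sirt7* KO livers. For *Srebf1* they were *Apoo*, *Hsd3b3* and *Mrpl13* (0.992 to 0.994), and *Hsd3b3* ran from 47.5 CPM in WT liver 1 to 239 CPM in *Sirt7* KO liver 3. For *Insig2* they were *Lrrc8d*, *Mrpl44* and *Tfpi2* (0.980 to 0.996). These are the highest of many values over 6 points that share their libraries, and they are given as a description. No gene was among the nearest for more than 1 of them.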

How the data were processed

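The authors trimmed reads of the 6 livers with Trim Galore 0.6.5 and quantified them with Salmon 1.2.1 on the GRCm38 transcriptome (annotation release not given in the sources used here). They deposited estimated counts per transcript, not normalized, and TPM, which their Salmon run scaled by effective length and to a total per liver. Effective lengths and lengths were deposited too. Estimated counts were summed per gene with GENCODE M21 and rounded. The 1201 of 140992 transcripts without a gene were left out (0.303% to 0.492% of reads per liver). All livers differed by more than sampling noise.

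edgeR 4.0.16 (R 4.3.3) tested genotypes by quasi-likelihood (TMM, filterByExpr with a minimum count of 10, Benjamini-Hochberg over 12524 genes), with calls at an adjusted p under 0.05 and a fold change over 1.5. DESeq2 1.42.0 and limma-voom (limma 3.58.1) were alternatives, beside other scalings, filters, length offsets, a replicate block and leaving out each liver. Single values were compared by two-sided exact permutation (Python 3.11.15). Fits were tested on simulated data. Replicate livers come from separate mice.

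The 7 genes, the lists and the rules were chosen with earlier results of these data known. Named are the 7 genes, *Sirt7*, *Srebf1* isoforms with 5% of its TPM or a 1a or 1c start, the highest and lowest 2 genes of each list and the 3 genes most like *Srebf1*, *Insig1* and *Insig2*. Srebf1-203, Srebf2, Insig1 and Insig2 isoforms were named after their values were seen. Some genes that this rule names are not reported here. Depth limits genes with few reads, and intervals of counting error would not cover differences between mice.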

Additional observations from a re-analysis of the deposited data

How the results depend on the processing

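Beside 1 gene called higher and 0 called lower by edgeR (1418 at an unadjusted p under 0.05, in either direction), total count scaling and limma-voom each called 2 higher, no filter on low counts 417 higher and 216 lower, a length offset 1 lower, DESeq2 186 higher and 70 lower (176 and 69 with length offsets), and an unadjusted p with the fold change 554 higher and 371 lower. Leaving out 1 liver gave 0 to 165 higher and 0 to 87 lower, the largest counts without *Sirt7* KO liver 1. The labels do not say that replicate numbers pair the livers. Deviations of same-numbered livers correlated at 0.0652, 0.08 and -0.0437, and those of other pairs at -0.103 to 0.0487. A replicate block in edgeR gave 31 higher and 10 lower, none of them among the 7 genes. With this block the standard error of *Srebf1* fell from 0.40 to 0.14, and its adjusted p was 0.052 (edgeR). *Insig1* was called without a filter (1.16, adjusted p = 3.66e-07), by DESeq2 (1.16 and, with length offsets, 1.10) and without *Sirt7* KO liver 1. *Srebf1* was called without a filter only (1.06, adjusted p = 6.08e-06). The fit without a filter gave *Srebf1*, *Scap* and *Insig1* standard errors of 0.193, 0.192 and 0.194, against 0.40, 0.15 and 0.26 in the main fit. Its small p-values therefore do not take up how far each gene varied between livers. Leave-one-out ranges were 0.71 to 1.48 for *Srebf1*, 0.36 to 0.73 for *Srebf2*, 0.49 to 0.67 for *Scap*, 0.88 to 1.37 for *Insig1*, 0.38 to 0.79 for *Insig2*, -0.58 to 0.45 for *Mylip* and 0.28 to 0.71 for *Stard4*, with *Mylip* reversed at 0.45 without WT liver 3. *Sirt7* reversed with length offsets, to 0.80 in edgeR and 0.81 in DESeq2. The count of the 7 genes higher at an unadjusted p under 0.05 was 3 with total count scaling, 6 with the replicate block and 2 to 5 with 1 liver left out. The share of all tested genes is given for the main fit only, so the counts in these settings have no background beside them. In summed TPM 4 of the 7 genes did not overlap between genotypes, but over isoforms of at least 1000 bases only 2 did not. No share of all genes is given for TPM, so these 2 counts have no background beside them. With 1 liver left out, the median of the sterol synthesis list ran from 1.00 to 1.98 and that of the fasting list from -1.13 to -0.43. Medians near 0 moved with the setting: SREBP processing to -0.14 (total counts) and -0.10 (length offset), the LXR list to -0.12 (total counts), 0.074 (mean of at least 50 counts), 0.14 (limma-voom), 0.10 (replicate block) and -0.074 to 0.12 (1 liver left out, reversed at 0.12 without WT liver 2), and the sterol transport list to -0.19 (total counts) and -0.073 to 0.10 (1 liver left out, reversed at 0.0022 without WT liver 1, 0.05 without WT liver 3 and 0.10 without *Sirt7* KO liver 1). The difference in the 1a share of *Srebf1* in TPM was 0.75 percentage points, with an SD of 7.9 among WT and 8.2 among *Sirt7* KO livers (n = 3). It was -7.85 in reads and -8.50 over coding isoforms (two-sided exact permutation p = 0.4 and 0.3). The sign turned with the measure, and no measure showed a difference beyond the spread of the livers. Total count scaling moved the median of all tested genes from -0.01 to -0.11, and that of the LDL uptake list from 0.12 to -0.00033. The causes were not tested.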
